A study of Mus musculus with 4 samples.

Results

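A set of 10 amino acid and peptide transporters was followed in mouse embryonic stem cells that had lost Oct4: Slc7a1, Slc7a3, Slc7a5, Slc7a7, Slc7a11, Slc3a2, Slc1a4, Slc1a5, Slc38a2 and Slc15a2. They were taken by the gene name that the array files give to each spot, leaving out control spots. They came to 10 of the 27670 genes, counted after symbols were updated, and to 19 of the 43379 non-control spots. Each of the 19 spots was a different probe, and 5 of the 10 genes had more than 1 probe. All 10 genes passed the filter on dim probes, as did 21369 genes of the whole array.

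The cells were ZHBTc4, a single line of mouse embryonic stem cells whose Oct4 (Pou5f1) comes from a transgene that doxycycline silences. All cells had been grown on irradiated embryonic fibroblasts and then passaged 2 times on gelatin. The dox+TCP group received 2 µg doxycycline and TCP for 48 h (n = 2 arrays), and the dox group, which the labels title as the control, received 2 µg doxycycline alone for 48 h (n = 2 arrays). Both groups were labelled with Cy5, and every array carried ZHBTc4 cells with no treatment named in Cy3 as the common reference. The labels do not spell out TCP, which in work on the histone demethylase LSD1 (Kdm1a), the subject of the study's title, usually stands for the LSD1 and monoamine oxidase inhibitor tranylcypromine. The replicates are biological per the labels, and no array had its dyes swapped, so a dye bias of a probe cannot be told apart from a difference between treated cells and the reference.

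Amino acids cross the plasma membrane through solute carriers that differ in substrate and in what they exchange. Several SLC7 proteins work only when bound to the heavy chain Slc3a2 (4F2hc, CD98), and such pairs exchange 1 amino acid against another, so they depend on carriers such as Slc1a5 and Slc38a2 that bring in the exchanged amino acids with sodium. Many of these genes are known targets of ATF4, the transcription factor of the amino acid response, which raises uptake when amino acids run short.

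Signal and label checks were as follows. The median Cy5 signal was 213 to 249 units against backgrounds of 53.5 to 60 units, and the median Cy3 signal 108 to 141 units against 22 to 26.5 units. No non-control spot was saturated. Pou5f1 had a log2 ratio to the reference of −3.29 and −3.28 on the dox+TCP arrays and −3.38 and −3.62 on the dox arrays, so the shut-off gene was low on all 4. The difference from the reference was −3.29 ± 0.10 with dox+TCP (limma adjusted p = 0.0146) and −3.50 ± 0.10 with dox (limma adjusted p = 0.0105; ± is the standard error here and below). All 7 measured embryonic stem cell markers lay below the reference in both groups. By limma 5 of them passed with dox+TCP and 7 with dox, where 15.4% and 14.6% of all genes passed. The 2 that did not pass with dox+TCP were Utf1 (−1.48, limma adjusted p = 0.0517) and Nanog (−0.55, limma adjusted p = 0.133). None of the 7 passed between dox+TCP and dox. The reference was not the same in both replicates: the mean log2 Cy3 level of 10 trophoblast markers was 10.57 and 12.24 on dox+TCP arrays 1 and 2, and 10.50 and 12.39 on dox arrays 1 and 2. The mean of 10 fibroblast markers in Cy3 was 8.53 and 7.98 on the dox+TCP arrays and 8.65 and 7.99 on the dox arrays, and nearly all markers of both lists were well above background. The Cy3 mean of the 7 embryonic stem cell markers was 12.91 and 12.97 on dox+TCP arrays, and 12.90 and 13.14 on dox arrays. In Cy5 the trophoblast mean was 12.52 and 12.55 with dox+TCP, and 12.99 and 12.82 with dox. The median log2 ratio of the 10 trophoblast markers was 1.67 and 0.19 on dox+TCP arrays 1 and 2, and 2.72 and 0.34 on dox arrays 1 and 2, and 0 of 10 passed in either group by limma (unadjusted p under 0.05 for 2 with dox+TCP and 1 with dox). The fibroblast mean in Cy5 was 8.51 and 8.08 with dox+TCP, and 8.12 and 8.0 with dox. The part of these differences in the results below was not tested. The ratios of the replicate arrays correlated at 0.865 over genes with dox+TCP and at 0.661 with dox, as a description of genes that are not independent. Arrays of different groups with the same replicate number correlated at 0.878 (replicate 1, on a shared slide) and 0.815 (replicate 2). Thus the arrays resembled each other by replicate at least as much as by treatment for dox.

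The expression of the 10 transporters split into a pair that fell to a small part of the reference level, a pair that stood above it, and 6 that passed the test in neither group. Slc7a3 and Slc7a7 fell in both treated groups, Slc1a4 and Slc15a2 rose with dox+TCP, and no member passed the test between dox+TCP and dox. With dox+TCP, 4 of 10 members passed against the reference (limma, Benjamini-Hochberg adjusted p at 0.05), where 15.4% of all genes did (7.32% higher and 8.09% lower). With dox, 2 of 10 passed, both lower, where 14.6% of all genes did (6.34% higher and 8.24% lower), so the share of members was close to that of all genes. Between dox+TCP and dox, 0 members and 0% of all genes passed, while 4.39% of all genes had an unadjusted p under 0.05. Against the reference, 4 of 10 members had an unadjusted p under 0.05 in each group, where 33.2% of all genes did with dox+TCP and 32.8% with dox. The median log2 difference over the members was 0.08 with dox+TCP and −0.06 with dox, against 0.03 and −0.00095 over all genes. These counts turn on processing choices. With local backgrounds as read, 0 members and 0 of the 21369 genes passed in each group. With median centring in place of loess the median of all genes stood at 0.18 in each group, against 0.03 with dox+TCP and −0.00095 with dox by the loess, and the calls became 3997 higher and 1103 lower with dox+TCP, against 1564 and 1729 by the loess, and 4879 higher and 1131 lower with dox, against 1354 and 1761 by the loess. Fewer cells of a type and less RNA per cell cannot be told apart in these bulk samples.

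**Figure D1:**
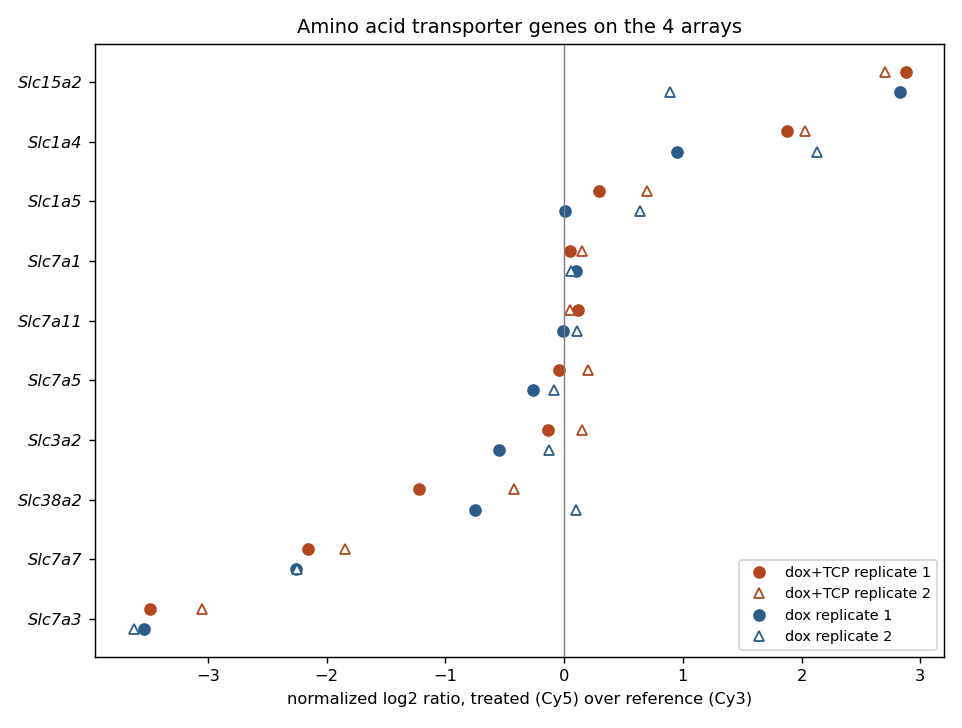
Log2 ratio of treated cells (Cy5) over the reference (Cy3) for each of the 10 transporters on every array, after loess normalization. Slc7a3 and Slc7a7 lie below −1.8 on all 4 arrays, while the 2 dox arrays lie far apart for Slc15a2 (2.83 and 0.89) and Slc1a4 (0.95 and 2.13).

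Slc7a3 (CAT-3, a carrier of the cationic amino acids arginine, lysine and ornithine) had the largest fall of the 10. Its probe for NM_007515 lies at chrX:96406676-96406735 (mm7). The log2 ratio was −3.49 and −3.05 on dox+TCP arrays 1 and 2, and −3.54 and −3.62 on dox arrays 1 and 2. Every array was far below 0, and the dox+TCP values sat above those of dox. The level in Cy5 (log2 intensity) was 11.57 and 11.67 with dox+TCP and 11.53 and 11.10 with dox, against 15.06, 14.72, 15.07 and 14.72 in the reference on the same arrays. The mRNA was 9.64-fold lower with dox+TCP (log2 −3.27 ± 0.14, limma adjusted p = 0.0160) and 12.0-fold lower with dox (log2 −3.58 ± 0.14, limma adjusted p = 0.0112). The difference between dox+TCP and dox was 0.31 on the log2 scale (95% interval −0.24 to 0.86, limma adjusted p = 0.996). Slc7a1, the other CAT carrier here (CAT-1), had a log2 ratio of 0.05 and 0.15 with dox+TCP, against 0.10 and 0.06 with dox.

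Slc7a7 (y+LAT1, the exchanger of cationic for neutral amino acids, a light chain of Slc3a2) also fell in both groups. Its probe for NM_011405 lies at chr14:49236554-49236613 (mm7). The log2 ratio was −2.16 and −1.85 on dox+TCP arrays 1 and 2, and −2.26 and −2.25 on dox arrays 1 and 2. All arrays were low, and both dox+TCP values were closer to 0 than both dox values. The Cy5 level was 12.12 and 12.04 with dox+TCP and 12.02 and 11.77 with dox, against 14.29, 13.89, 14.28 and 14.02 in the reference. The mRNA was 4.01-fold lower with dox+TCP (log2 −2.0 ± 0.11, limma adjusted p = 0.0165) and 4.78-fold lower with dox (log2 −2.26 ± 0.11, limma adjusted p = 0.0134). The difference between dox+TCP and dox was 0.25 (95% interval −0.19 to 0.70, limma adjusted p = 0.996). Leaving out either dox+TCP array, the calls of Slc7a3 and Slc7a7 were lost in both groups, with the same log2 values for dox. The calls of all other genes were lost as well, so this loss is not particular to Slc7a3 and Slc7a7. With median centring the dox values were −2.97 for Slc7a3 and −1.65 for Slc7a7, and both passed.

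A promoter window of Slc7a7 is shown because it holds the letters TGATGNAA, the core of the amino acid response element through which ATF4 and C/EBP factors act, which capitals mark. It is 1 of 5 windows of the gene in RefSeq, runs from 250 bases before to 50 after a start of transcription (GRCm38.p6, minus strand, chr14:54417895-54418194), and reads:
Slc7a7: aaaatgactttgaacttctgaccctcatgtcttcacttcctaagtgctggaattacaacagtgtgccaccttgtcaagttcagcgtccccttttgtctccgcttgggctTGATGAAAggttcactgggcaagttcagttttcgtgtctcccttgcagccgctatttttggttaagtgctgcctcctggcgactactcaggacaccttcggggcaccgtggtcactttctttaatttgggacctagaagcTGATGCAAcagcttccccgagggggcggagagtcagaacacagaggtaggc
The first match lies at −141 to −134 and the other at −1 to 7 from that start. Windows were found for 7 of the 10 genes (12 windows), and 4 of the 12, from Slc7a7 (2 windows that overlap), Slc7a11 and Slc1a4, held the core on either strand, against 3.97% of all 32851 windows in RefSeq. The other motifs searched on both strands were TGACNNNGC, the antioxidant response element core, in 2 of the 12 windows (Slc7a1 and Slc38a2) and 12.39% of all windows; the E-box CACGTG, in 0 of the 12 and 7.15% of all; and the octamer ATGCAAAT, in 1 (Slc7a11) and 1.74% of all. In Slc7a11 the octamer overlaps the amino acid response element core. A match is a run of letters and not a site of binding.

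Slc1a4 (ASCT1, a carrier of alanine, serine, cysteine and threonine) rose with dox+TCP. Its probe for NM_018861 lies at chr11:20255454-20255513 (mm7). The log2 ratio was 1.87 and 2.03 on dox+TCP arrays 1 and 2, and 0.95 and 2.13 on dox arrays 1 and 2. Dox array 1 was the lowest of the 4, and dox array 2 was as high as the dox+TCP arrays, so the groups overlap. The Cy5 level was 10.86 and 11.10 with dox+TCP and 9.79 and 11.18 with dox, against 8.99, 9.07, 8.84 and 9.05 in the reference. The mRNA was 3.87-fold higher with dox+TCP (log2 1.95 ± 0.31, limma adjusted p = 0.0365). With dox it was 2.91-fold higher without passing (log2 1.54 ± 0.31, limma adjusted p = 0.0562), and the difference between dox+TCP and dox was 0.41 (95% interval −0.84 to 1.67). On the shared slide of replicate 1 that difference was 0.92, and in replicate 2 it was −0.09. A second probe of the gene had 1.31 and 1.42 with dox+TCP, and 0.79 and 1.54 with dox, in the same order on the arrays of each group. The Slc1a4 window (chr11:20332664-20332963, minus strand) is shown for the core that straddles its start, at −4 to 4, on the opposite strand:
Slc1a4: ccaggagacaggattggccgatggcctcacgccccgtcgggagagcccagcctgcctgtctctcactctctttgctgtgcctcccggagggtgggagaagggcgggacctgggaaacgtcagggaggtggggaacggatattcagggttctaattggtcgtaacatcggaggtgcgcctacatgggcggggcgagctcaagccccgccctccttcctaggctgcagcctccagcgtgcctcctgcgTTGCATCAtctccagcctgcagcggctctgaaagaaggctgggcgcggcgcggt

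Slc15a2 (PEPT2, a proton-coupled carrier of di- and tripeptides) rose with dox+TCP by more than any other member when each gene was read from its brightest probe. Its probe for NM_021301 lies at chr16:36458896-36458955 (mm7). The log2 ratio was 2.88 and 2.70 on dox+TCP arrays 1 and 2, and 2.83 and 0.89 on dox arrays 1 and 2. Dox array 2 alone was low, and dox array 1 lay between the dox+TCP arrays. The Cy5 level was 11.01 and 10.70 with dox+TCP and 11.02 and 8.97 with dox, against 8.13, 8.0, 8.18 and 8.07 in the reference, so the array that differed did so in the treated channel. The mRNA was 6.92-fold higher with dox+TCP (log2 2.79 ± 0.51, limma adjusted p = 0.0446) and 3.64-fold higher with dox without passing (log2 1.86 ± 0.51, limma adjusted p = 0.0957). The difference between dox+TCP and dox was 0.93 (95% interval −1.10 to 2.96, limma adjusted p = 0.996), and without dox replicate 2 it was −0.04. The dox value is thus 2.83 or 0.89 according to which dox array is left out, and 1 dox array alone gives no spread among dox arrays. A second probe of the same transcript, at chr16:36480821-36480880 (mm7), did not show this size: it had 0.70 and 0.21 with dox+TCP, and 0.16 and 0.44 with dox. The Slc15a2 window (chr16:36784913-36785212, minus strand) is shown as the member with the highest ratio, and it held none of the 4 motifs:
Slc15a2: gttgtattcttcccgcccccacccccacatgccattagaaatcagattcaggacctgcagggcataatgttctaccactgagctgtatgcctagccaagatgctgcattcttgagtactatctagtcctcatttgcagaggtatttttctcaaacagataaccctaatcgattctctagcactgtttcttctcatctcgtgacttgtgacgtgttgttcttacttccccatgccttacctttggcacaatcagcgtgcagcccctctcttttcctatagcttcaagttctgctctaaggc
The dox+TCP calls of Slc1a4 and Slc15a2 were lost without either dox+TCP array and with local backgrounds as read, as were the calls of all other genes. With local backgrounds as read the log2 values were 1.01 for Slc1a4 (limma adjusted p = 0.861) and 1.14 for Slc15a2 (limma adjusted p = 0.571). As the average of its probes Slc15a2 had 1.62 with dox+TCP (adjusted p = 0.0296) and 1.08 with dox (adjusted p = 0.0604). Slc1a4, averaged in the same way, had 1.66 with dox+TCP (limma adjusted p = 0.0322) and 1.35 with dox (limma adjusted p = 0.0459), and so stood above Slc15a2. Both genes also passed with dox under median centring, at 2.02 for Slc1a4 (adjusted p = 0.0153) and 2.27 for Slc15a2 (adjusted p = 0.0315). By the scanner's log ratios both passed with dox too, at 1.70 for Slc1a4 (limma adjusted p = 0.0393) and 2.26 for Slc15a2 (limma adjusted p = 0.0378), as by the authors' value table. Neither passed with dox with no background subtraction, with no filter on dim probes or with the stricter filter.

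**Figure D2:**
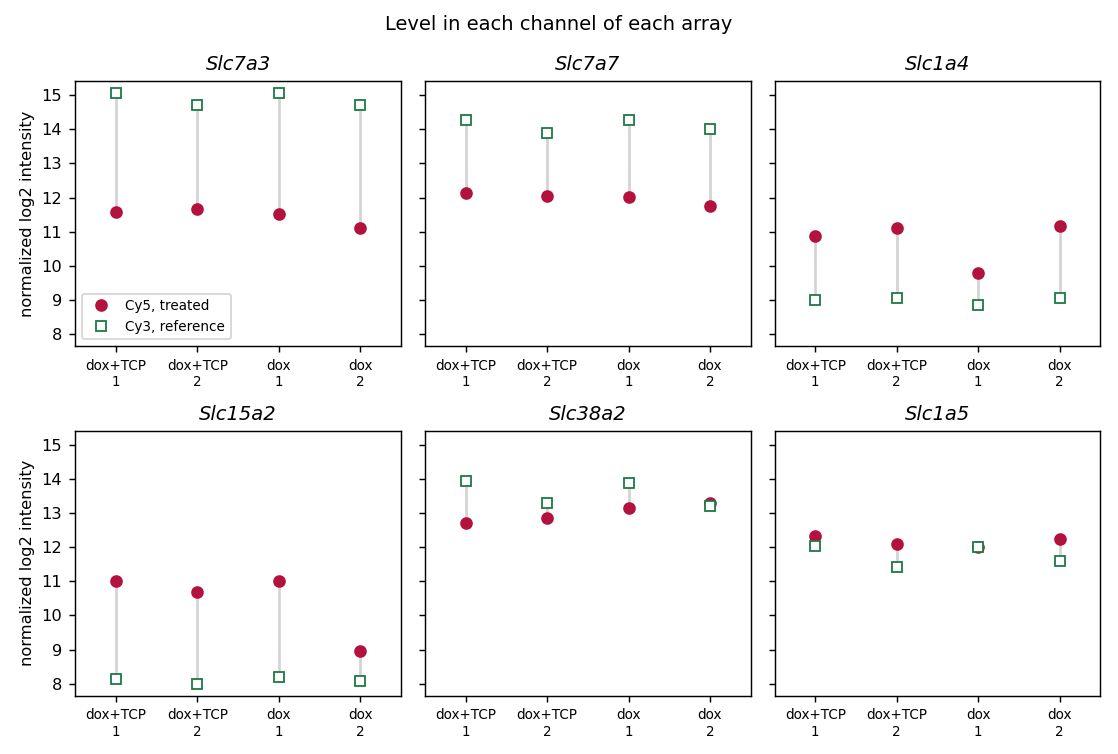
Log2 level of 6 of the transporters in Cy5 (treated cells) and in Cy3 (reference) on each array. For Slc15a2 the Cy3 levels stay between 8.0 and 8.18 on all 4 arrays, while Cy5 on dox array 2 is 8.97, against 10.70 to 11.02 on the other arrays.

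Slc3a2, the heavy chain that Slc7a5, Slc7a7 and Slc7a11 bind, did not pass in either group. Its log2 ratio was −0.14 and 0.15 with dox+TCP, and −0.55 and −0.13 with dox, and the groups overlap. The log2 difference from the reference was 0.0057 ± 0.15 with dox+TCP and −0.34 ± 0.15 with dox. Slc7a5 (LAT1, the carrier of large neutral amino acids such as leucine) had a log2 ratio of −0.04 and 0.20 with dox+TCP, against −0.26 and −0.08 with dox. Both dox values were the lower ones, at a distance of 0.25 (95% interval −0.18 to 0.69). In Cy5 the groups overlapped, at 12.83 and 12.75 with dox+TCP, and 12.63 and 12.99 with dox. The reference in Cy3 was 12.87 and 12.55 on the dox+TCP arrays, and 12.90 and 13.07 on the dox arrays. Slc7a11 (xCT, the cystine and glutamate exchanger) had 0.12 and 0.05 with dox+TCP, and −0.0098 and 0.11 with dox. It was dim: 3 of its 4 probes were not tested, and the probe used was well above background on 4 arrays in Cy5 and on 3 in Cy3. The Slc7a11 window (chr3:50443564-50443863, minus strand) is shown because it holds the core on both strands at −66 to −59 and −47 to −40, in a gene whose ratio was near 0:
Slc7a11: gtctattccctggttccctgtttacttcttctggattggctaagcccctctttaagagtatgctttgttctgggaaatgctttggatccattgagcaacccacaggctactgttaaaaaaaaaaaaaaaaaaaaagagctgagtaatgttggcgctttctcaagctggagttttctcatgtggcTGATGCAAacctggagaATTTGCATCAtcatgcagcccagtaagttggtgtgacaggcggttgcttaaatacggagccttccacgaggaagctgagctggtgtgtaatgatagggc

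The sodium-coupled carriers Slc1a5 and Slc38a2 passed in neither group, and their arrays of replicate 1 and of replicate 2 stood apart. Slc1a5 (ASCT2, a carrier of glutamine and other neutral amino acids) had a log2 ratio of 0.29 and 0.70 with dox+TCP, against 0.01 and 0.64 with dox. Slc38a2 (SNAT2, a carrier of neutral amino acids) had −1.22 and −0.42 with dox+TCP, against −0.75 and 0.10 with dox. In both genes replicate 2 had the higher ratio in each group. The reference itself moved: Slc38a2 in Cy3 was 13.93 and 13.29 on dox+TCP arrays 1 and 2, and 13.90 and 13.21 on dox arrays 1 and 2, while Cy5 was 12.71 and 12.87 with dox+TCP, and 13.15 and 13.31 with dox. Between replicates 1 and 2 the mean Cy3 level fell by 0.66 for Slc38a2 and by 0.51 for Slc1a5, and was 0.52 higher in replicate 2 for Slc7a1, so 3 of 10 members moved by 0.5 or more on the log2 scale where 14.5% of genes did. Against the reference Slc38a2 was −0.82 ± 0.31 with dox+TCP (limma adjusted p = 0.171) and −0.32 ± 0.31 with dox (limma adjusted p = 0.553). Slc1a5 was 0.49 ± 0.21 with dox+TCP (limma adjusted p = 0.201) and 0.32 ± 0.21 with dox (limma adjusted p = 0.374).

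The 4 probes of Slc38a2 did not give 1 pattern. The others had −0.90 and −0.45 with dox+TCP and −0.81 and −0.68 with dox, then −0.35 and 0.84 with dox+TCP and −0.95 and −0.23 with dox, and last −0.80 and 0.47 with dox+TCP and −0.81 and 0.55 with dox. In every one of the 4 probes replicate 2 lay above replicate 1 in both groups. The mean over its probes turned the difference between dox+TCP and dox to 0.09, against −0.50 (95% interval −1.74 to 0.75) for the brightest probe.

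**Figure D3:**
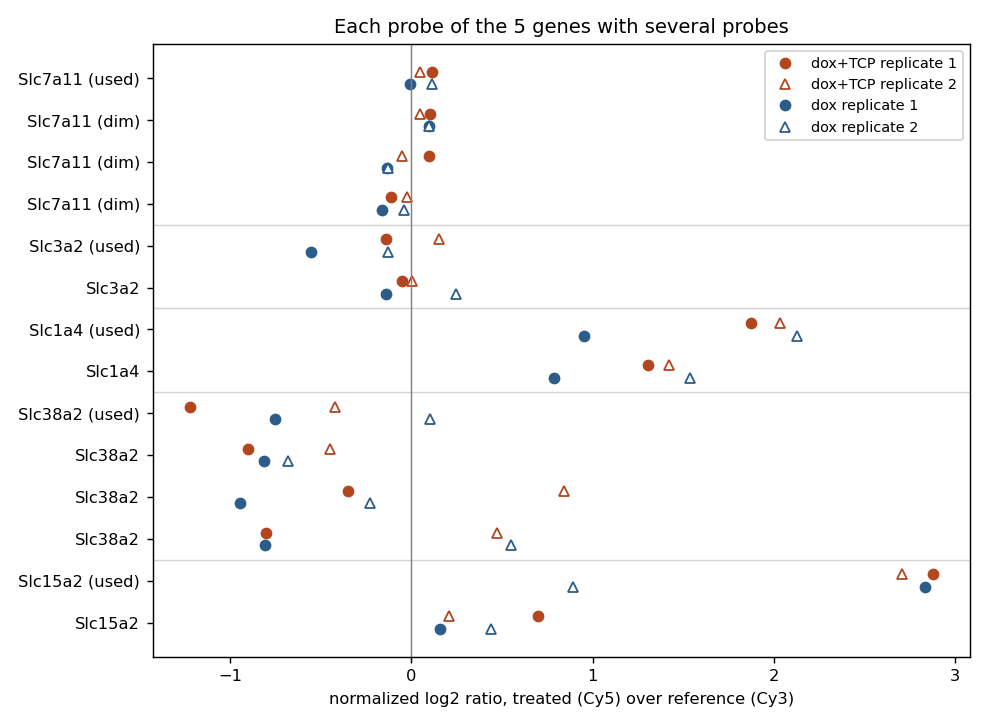
Log2 ratio to the reference of every probe of the 5 members that have more than 1 probe, on each array; the probe that stands for the gene is marked as used and untested probes as dim. The 4 probes of Slc38a2 spread from −1.22 to 0.84, and the second Slc15a2 probe stays between 0.16 and 0.70.

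Between dox+TCP and dox the members' differences ran from −0.50 (Slc38a2) to 0.93 (Slc15a2), and 9 of 10 were above 0. The members were read on the same arrays, so these are not 10 independent values. The members' median difference was 0.25, against 0.04 over all genes. That median was 0.08 with median centring, and ran from 0.08 to 0.39 as 1 array was left out in turn. No difference passed, with an adjusted p of 0.996 for each. The 95% intervals were narrowest for Slc7a1 (0.02, from −0.30 to 0.34) and Slc7a11 (0.03, from −0.30 to 0.37), and widest for Slc15a2. Arrays of replicate 1 shared a slide, and the members did not move one way between that slide and the separate slides of replicate 2. Only the dox+TCP array of replicate 2 was scanned on another day. In that replicate, slide and scan day cannot be told apart from TCP. Slc7a3 differed by 0.05 on the shared slide and by 0.57 in replicate 2, Slc7a7 by 0.10 and 0.41, Slc15a2 by 0.05 and 1.81, and Slc7a5 by 0.22 and 0.29. Slc1a4 went the other way with 0.92 on the shared slide and −0.09 in replicate 2, as did Slc3a2 with 0.41 and 0.28, and Slc1a5 with 0.28 and 0.06. Slc38a2 had −0.47 and −0.52, Slc7a1 −0.05 and 0.09, and Slc7a11 0.12 and −0.06.

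**Figure D4:**
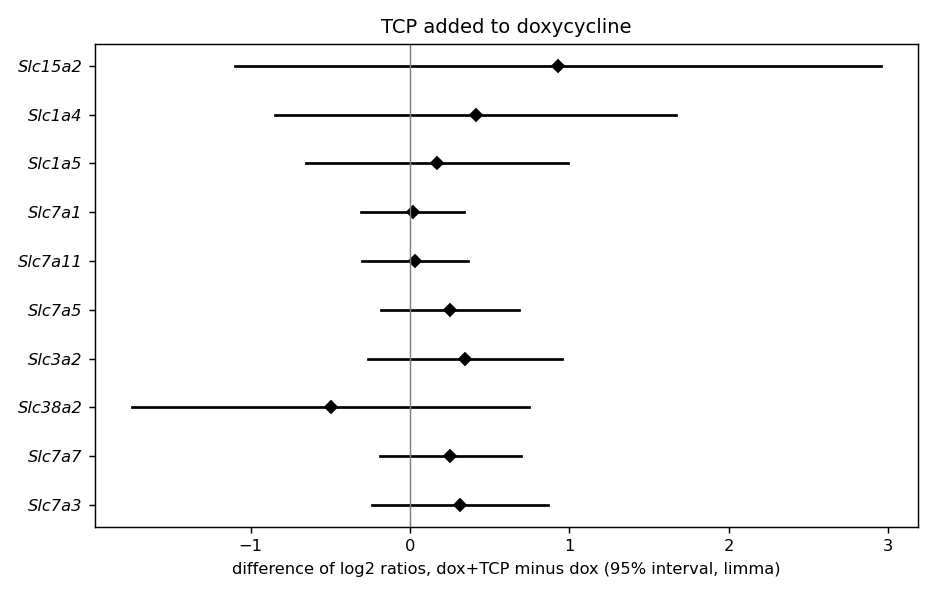
Difference in log2 ratio between dox+TCP and dox for each transporter (diamond), with its 95% interval from limma (line). All 10 intervals span 0.

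Of 48 other amino acid transporters listed, 47 were on the array and 37 were tested. With dox+TCP 6 rose and 1 fell (18.9% of the 37 passed), and with dox 3 rose and 2 fell (13.5%). These shares are close to the 15.4% and 14.6% of all genes that passed. The median was 0.12 with dox+TCP and 0.09 with dox, against 0.03 and −0.00095 over all genes. Slc38a5 (SNAT5, a system N carrier) fell, with −1.06 and −1.10 on the dox+TCP arrays and −1.31 and −1.24 on the dox arrays (log2 −1.08, adjusted p = 0.0169, and −1.27, adjusted p = 0.0141). Slc38a9, an amino acid sensor of the lysosome, rose by 1.20 with dox+TCP (adjusted p = 0.0189) and by 1.00 with dox (adjusted p = 0.0231). Slc6a9 (GLYT1, a glycine carrier) rose by 1.47 with dox+TCP (adjusted p = 0.0268) and by 1.53 with dox (adjusted p = 0.0264). Slc38a1 (SNAT1) rose by 1.07 with dox+TCP (adjusted p = 0.0250) and by 0.76 with dox (adjusted p = 0.0417). Slc32a1, a vesicular carrier of GABA and glycine, fell with dox (−0.92, adjusted p = 0.0292), and had −0.58 with dox+TCP (adjusted p = 0.0605). Slc38a7 (0.60, adjusted p = 0.0262) and Slc36a1 (0.70, adjusted p = 0.0413) rose with dox+TCP. Between dox+TCP and dox none passed, and 25 of the 37 differences were above 0, with a median of 0.07. The smallest unadjusted p-values belonged to the glutamate carriers Slc1a1 and Slc1a3. Slc1a1 had 0.18 and 0.45 with dox+TCP, against −0.37 and −0.55 with dox, a difference of 0.78 (limma adjusted p = 0.996). Slc1a3 had 0.46 and 0.84 with dox+TCP, against −0.32 and 0.03 with dox, a difference of 0.80 (limma adjusted p = 0.996).

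**Figure D5:**
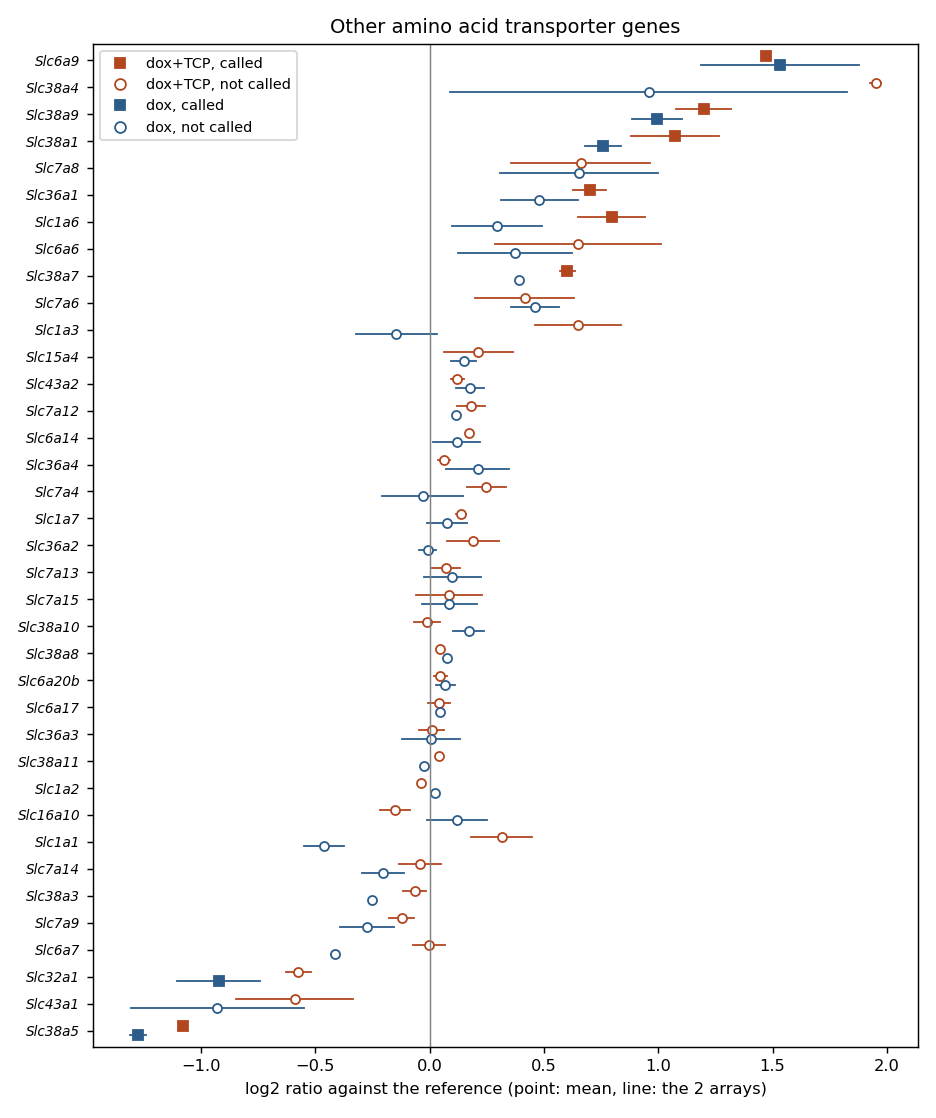
Log2 ratio to the reference of the 37 other amino acid transporters tested, as the mean of a group (point, filled where it passed the test) with a line between its 2 arrays. Slc38a5 lies between −1.31 and −1.06 on all 4 arrays, and Slc6a9 between 1.19 and 1.88.

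All 10 transcription factors on a list of those known to act on amino acid transporter genes were measured. With dox+TCP 3 rose and 1 fell, and with dox 3 rose, against 15.4% and 14.6% of all genes that passed in either direction. Ddit3 (CHOP, induced in the amino acid and unfolded protein responses) had 3.04 and 3.49 on the dox+TCP arrays and 1.99 and 2.77 on the dox arrays, and rose by 3.27 with dox+TCP (limma adjusted p = 0.0169) and by 2.38 with dox (limma adjusted p = 0.0208). Cebpg, a dimer partner of ATF4, rose by 1.26 with dox+TCP (limma adjusted p = 0.0169) and by 1.49 with dox (limma adjusted p = 0.0141). Cebpb rose by 2.43 with dox+TCP (limma adjusted p = 0.0419) and by 2.70 with dox (limma adjusted p = 0.0356). Atf4 itself did not pass, at 0.73 with dox+TCP (limma adjusted p = 0.0584) and 0.70 with dox (limma adjusted p = 0.0648), and its main control is known to lie in translation. Myc, which is known to drive Slc7a5 and Slc1a5 in other cells, had −1.43 and −1.97 on the dox+TCP arrays, and 0.42 and −0.53 on the dox arrays. It fell by 1.70 with dox+TCP (limma adjusted p = 0.0411), and the difference between dox+TCP and dox did not pass (−1.64, limma adjusted p = 0.996). Nfe2l2 (NRF2, a regulator of Slc7a11) had 0.66 with dox+TCP (adjusted p = 0.0513) and 0.57 with dox (adjusted p = 0.0688), and its antagonist Bach1 had 0.64 with dox+TCP and 0.22 with dox.

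The scanner's own log ratios, before any renormalization, had the same sign as the values above on all 4 arrays for 9 of the 10 members, and on 3 arrays for Slc7a11. The largest gap between both versions was 0.60 for Slc15a2, whose scanner log2 ratio was 3.24 and 3.30 with dox+TCP, and 3.22 and 1.30 with dox. For Slc7a3 they were −3.45 and −3.05 with dox+TCP and −3.53 on both dox arrays.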

How the data were processed

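The 4 Agilent arrays each compared treated ZHBTc4 cells with the reference in 2 colours. Spot and background intensities, as scanned, and log10 ratios of Cy5 over Cy3, background-subtracted and dye-normalized, come from Agilent Feature Extraction 10.1.1.1, per the file headers; the deposited series matrix holds the same log10 ratios within 0.005, with column medians of 0, 0.0111, 0 and 0. Here, local backgrounds over 2 times an array's median (11 to 112 spots) were set to that median, followed by normexp (offset 50) and loess in limma 3.58.1 (R 4.3.3). Spots with outlier marks were left out. Probes entered the test when Cy5 was well above background on each array of at least 1 group, or Cy3 on all 4, and the brightest tested probe (of 31127) stands for a gene. limma was fitted over all 4 arrays with a mean per group (2 residual degrees of freedom, 1.79 prior) and Benjamini-Hochberg adjustment at 0.05 over 21369 genes. In a value against the reference, the spread of the reference is part of the spread of the ratios and was not estimated apart. Symbols outside the members were updated through a GRCm38.p6 table. The script was tested on simulated data.

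The 10 members and the lists were chosen with earlier results of these data known. Named besides the members were Pou5f1, up to 6 called other transporters per comparison by adjusted p (where none, the 2 with the smallest p), and regulators. Alternatives changed the background, normalization, filter, probe choice, replicates and block. Exon or UTR positions of probes were not analysed here.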

Additional observations from a re-analysis of the deposited data

How the results depend on the processing

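Each group has 2 arrays, so the counts against the reference move with the estimate of the spread. With dox+TCP 4 members and 3293 genes passed; local backgrounds as read gave 0 and 0, median centring 5100 genes, the replicate block 5146 genes, and the arrays of that group alone 5920 genes, and leaving out 1 array in turn gave 0 to 4 members and 0 to 5920 genes. With dox 2 members and 3115 genes passed; local backgrounds as read gave 0 and 0 (1804 genes at an unadjusted p under 0.05), median centring 4 and 6010, the scanner's log ratios 4 members, the value table of the authors also 4 members, the replicate block 4 and 4872, the arrays of that group alone 0 and 0 (5131 genes unadjusted), and leaving out 1 array 0 to 4 members and 0 to 4104 genes. Between dox+TCP and dox, limma called 0 genes under every alternative run. The same replicate numbers deviated together (correlation 0.472, 2 pairs), but the labels name no shared batch, so the block stands only here; with it Slc1a5 (adjusted p = 0.0461) and Slc38a2 (0.0185) also passed with dox+TCP. No called member value changed sign under any alternative run. Values that turned sign, none of them called, were the following with median centring: dox Slc7a5 (0.43), Slc7a11 (−0.057), Slc3a2 (0.36) and Slc38a2 (0.31), dox+TCP Slc7a11 (−0.0062), and the difference of Slc7a1 (−0.0097). With local backgrounds as read they were dox+TCP Slc3a2 (−0.013) and the differences of Slc7a1 (−0.0073), Slc7a11 (−0.043) and Slc1a4 (−0.077). Averaging the probes of each gene gave dox+TCP Slc3a2 (−0.0098) and the difference of Slc38a2 (0.093). The difference of Slc7a1 was −0.065 from the scanner's ratios and from the value table, that of Slc7a11 was −0.00097 with no background subtraction, and Cy5 levels alone gave −0.021 for Slc7a5, −0.0065 for Slc7a11 and −0.37 for Pou5f1. Leaving out 1 array in turn, values spanned 0 for dox in Slc7a11 (−0.0098 to 0.11) and Slc38a2 (−0.75 to 0.10), for dox+TCP in Slc7a5 (−0.044 to 0.20) and Slc3a2 (−0.14 to 0.15), and for the difference in Slc7a1 (−0.033 to 0.065), Slc7a11 (−0.029 to 0.093), Slc1a4 (−0.17 to 1.0), Slc1a5 (−0.14 to 0.48) and Slc15a2 (−0.041 to 1.90). The cause of these moves was not tested. A random block for slide or scan day could not be fitted, and scan day as a fixed term leaves out dox+TCP replicate 2. Slc7a11 had no value under the stricter filter on dim probes. The number of arrays limits the precision; the median standard error over genes was 0.11 against the reference and 0.16 between dox+TCP and dox.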
